A study of Mus musculus with 8 samples.

Results

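The nuclear genes of respiratory complexes II, III and IV were followed here, together with cytochrome c, the small carrier between complexes III and IV, and with factors that assemble complex IV. The list held 37 genes, of 20660 that could be named on the array through a RefSeq transcript accession. They were 4 subunits of complex II, 9 of complex III, the gene of cytochrome c and 14 subunits of complex IV. Added to these were 1 gene listed as a supercomplex factor of complexes III and IV, and 8 assembly and copper delivery factors of complex IV. All 37 had at least 1 probe and 13 had more than 1, so that 55 probes covered the list. Of these genes 36 were measured in both muscles, and Cox17 was not well above background on any array in either channel.

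Male C57BL6 mice heterozygous for Eif6 (Eif6+/-) were compared with wild-type (WT) littermates at 8 to 16 weeks of age, in gastrocnemius and tibialis anterior (TA), both muscles of the lower leg. Each of 8 Agilent two-colour arrays held cRNA of 1 Eif6+/- mouse in Cy5 (red) and of 1 age-matched WT mouse in Cy3 (green), paired at random, with 4 pairs per muscle. The dyes were not swapped, so that genotype and dye cannot be told apart in either ratio, and the gastrocnemius and TA arrays lay in separate rows of one slide, so that slide position and muscle cannot be told apart.

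The share of the 55681 probes that stood well above background was 43.6% to 48.6% per array in the red channel and 38.7% to 46% in the green one. Median spot intensity was 60 to 74 in Cy5 against a local background of 41 to 44, and 46 to 61 in Cy3 against 20 to 22. How precise the values are is limited by the number of arrays. Values are log2 ratios of Eif6+/- over WT on each array unless a signal is named, and a gene was called when its adjusted p from limma was under 0.1.

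The respiratory chain passes electrons from fuel to oxygen and pumps protons across the inner mitochondrial membrane, and the gradient drives ATP synthesis. Complex II oxidises succinate and also belongs to the citric acid cycle, complex III hands electrons from ubiquinol to cytochrome c, and complex IV (cytochrome c oxidase) passes them to oxygen. Several complex IV subunits have an isoform of heart and skeletal muscle beside a widely expressed one, and oxidative fibres hold more of all these complexes than glycolytic fibres do.

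Eif6, which encodes a factor that keeps the large ribosomal subunit from joining the small one, was lower on all 8 arrays. In gastrocnemius its log2 ratios were −0.97, −1.15, −0.89 and −1.06 on pairs 1 to 4, and in TA −1.22, −1.03, −0.95 and −0.80. The WT signals were 10.56, 10.90, 10.65 and 10.65 in gastrocnemius and 10.67, 10.52, 10.52 and 10.44 in TA on the log2 scale. In Eif6+/- muscle they were 9.59, 9.75, 9.76 and 9.59 in gastrocnemius and 9.45, 9.49, 9.57 and 9.64 in TA, so that every Eif6+/- channel lay below every WT channel. Eif6 fell in gastrocnemius (mean log2 ratio −1.02, limma adjusted p = 0.0241) and in TA (−0.999, adjusted p = 0.0109), and the difference between the muscles was −0.019 (adjusted p = 0.98). Without gastrocnemius pair 3 or pair 4 its log2 ratio was −1.06 and −1.004, with adjusted p of 0.122 and 0.157.

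Which members differed between the genotypes in each muscle was asked first. In gastrocnemius 11 of the 36 measured members rose in Eif6+/- and 0 fell by limma, while 9.86% of all 12615 genes tested rose and 5.53% fell. An unadjusted p under 0.05 was found for 16 members and 29% of all genes, and SAM (significance analysis of microarrays) at the same threshold called 15 members higher and 0 lower, against 17% and 8.05% of genes. Their median log2 ratio was 0.18 against 0.020 for all genes, and 29 of 36 were above 0 against 53.9% of all genes. In TA 0 members rose and 7 fell, against 8.98% and 7.28% of 12387 genes. Here 12 members and 29.1% of genes had an unadjusted p under 0.05, and SAM called 1 member higher and 8 lower, against 12% and 9.03% of genes. The median was −0.086 against 0.019 for all genes, with 13 of 36 above 0 against 54% of all genes. Without TA pair 4 the members' median was −0.054 against 0.026 for all genes.

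The direction of the members was not even over the pairs. Over the 36 members the median ratio was 0.32, 0.056, 0.31 and 0.11 on gastrocnemius pairs 1 to 4, and 34, 21, 30 and 24 members were above 0. On TA pairs 1 to 4 it was 0.093, −0.029, −0.055 and −0.24, with 21, 15, 13 and 4 members above 0. The lowest gastrocnemius median came from pair 2 and the lowest TA median from pair 4, and pair 2 of gastrocnemius lay below pair 1 of TA. Medians of all genes tested in both muscles stayed between 0.0037 and 0.037. Single arrays carried weight in both counts. Of the 11 calls in gastrocnemius 4 stayed without pair 1, where 8.27% of all genes rose. Without pair 2 (6.22% of all genes rose) 7 stayed and Uqcrb and Uqcrc2 were gained, 9 in all. None stayed (0) without pair 3 or without pair 4. In both of the last cases limma called 0 genes of any kind, and 10 and 13 members had an unadjusted p under 0.05, against 19.3% and 20.9% of genes. Of the 7 calls in TA 0 stayed without pair 1 (10 members and 17.9% of genes with an unadjusted p under 0.05), where 0.12% of all genes fell. Without pair 2 4 of these calls stayed (1.57% of all genes fell), without pair 3 5 (3.63%) and without pair 4 5 (7.43%). Without pair 4 Cox6a1, Sdhb and Uqcrq were gained as higher, and 8.8% of all genes rose. Loess alone and the deposited ratios also called Sdhb and Uqcrq higher in TA.

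**Figure D1:**
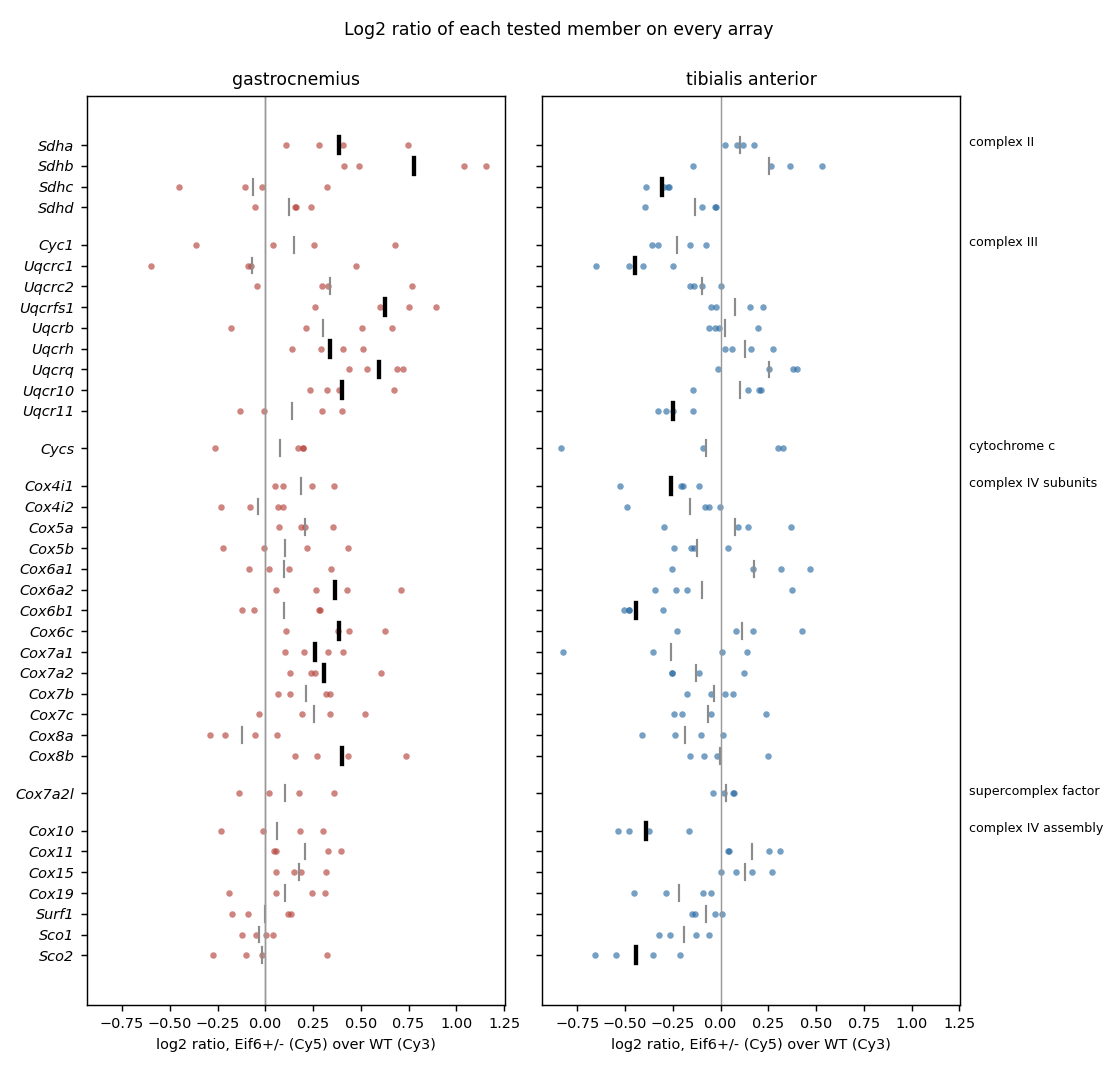
Log2 ratio of Eif6+/- over WT for each measured member, by role, in gastrocnemius and in TA; points are the 4 arrays of a muscle and the bar is their mean, thick and black where limma called the gene at an adjusted p under 0.1 and thin and grey where it did not. The 11 called members in gastrocnemius lie above 0 and the 7 called members in TA below 0.

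Complex II was represented by its 4 subunits, of which 2 rose in gastrocnemius and 1 fell in TA, against 9.86% and 7.28% of all genes. Sdhb carries the iron-sulphur clusters that lead electrons from succinate toward ubiquinone. Its log2 ratios were 1.16, 0.41, 1.04 and 0.49 on gastrocnemius pairs 1 to 4 and 0.53, 0.36, 0.26 and −0.14 on the TA pairs. All 4 gastrocnemius arrays were above 0, pairs 1 and 3 highest, and pairs 2 and 4 lay within the TA range, so the muscles overlapped. Sdhb rose 1.71-fold in gastrocnemius (log2 0.78, 95% confidence interval 0.452 to 1.1, limma adjusted p = 0.0357), the highest mean ratio of all members by brightest probe, and had a mean of 0.25 in TA (adjusted p = 0.168). A dimmer second probe of Sdhb gave 0.20 in gastrocnemius (adjusted p = 0.453) and −0.29 in TA (adjusted p = 0.0833), so the 2 probes differ in sign in TA. With the mean of its probes Sdhb had 0.49 in gastrocnemius and was not called (adjusted p = 0.11).

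Sdha is the flavoprotein on which succinate is oxidised, and its ratios were 0.75, 0.11, 0.41 and 0.28 in gastrocnemius and 0.12, 0.17, 0.086 and 0.025 in TA. All 8 arrays were above 0, with gastrocnemius pair 1 highest and pair 2 inside the TA range. Sdha rose 1.31-fold in gastrocnemius (log2 0.39, interval 0.13 to 0.64, adjusted p = 0.0827) and had a mean of 0.10 in TA (adjusted p = 0.361). Sdhc and Sdhd anchor the complex in the membrane and hold its haem. For Sdhc the ratios were 0.32, −0.45, −0.016 and −0.11 in gastrocnemius and −0.39, −0.29, −0.27 and −0.27 in TA, below 0 on all arrays but gastrocnemius pair 1. Sdhc fell in TA (log2 −0.31, adjusted p = 0.0393) and had a mean of −0.063 in gastrocnemius (adjusted p = 0.777), the lowest of complex II in both muscles, while its second probe gave 0.19 and −0.095 (adjusted p = 0.273 and 0.39). Sdhd had ratios of 0.24, −0.055, 0.16 and 0.15 and −0.095, −0.031, −0.023 and −0.40, above 0 on 3 of 4 gastrocnemius arrays and below 0 on all 4 TA arrays, and was called in neither muscle (means 0.13 and −0.14, adjusted p = 0.35 and 0.322). Without gastrocnemius pair 3 or pair 4 the adjusted p of Sdhb was 0.142 and 0.157 and that of Sdha 0.241 and 0.205, and without pair 1 the mean of Sdha was 0.26 (adjusted p = 0.148). The Sdha call was lost in 8 of 16 alternatives, among them loess alone, offset 0, Agilent's processed signals and the deposited ratios, and that of Sdhb in 3. Without TA pair 1 or pair 2 the adjusted p of Sdhc was 0.187 and 0.113.

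In complex III 4 of 9 subunits rose in gastrocnemius and 2 of 9 fell in TA, against 9.86% and 7.28% of all genes. The medians of these subunits were 0.34 and 0.024. Uqcrfs1 is the Rieske iron-sulphur protein, whose mobile head carries an electron from ubiquinol to cytochrome c1. Its ratios were 0.75, 0.60, 0.89 and 0.26 in gastrocnemius and 0.22, 0.15, −0.022 and −0.050 in TA. Every gastrocnemius array lay above every TA array. Uqcrfs1 rose 1.54-fold in gastrocnemius (log2 0.63, interval 0.37 to 0.88, limma adjusted p = 0.0357), with a TA mean of 0.076 (adjusted p = 0.545). Uqcrq, a small subunit near the ubiquinone site, had 0.69, 0.53, 0.72 and 0.44 in gastrocnemius and 0.40, 0.38, 0.25 and −0.015 in TA, again without overlap. It rose 1.51-fold in gastrocnemius (log2 0.60, interval 0.41 to 0.78, adjusted p = 0.0287), and its TA mean was 0.25 (adjusted p = 0.105), the highest in TA among all members. The second Uqcrq probe gave 0.42 in gastrocnemius (adjusted p = 0.0674) and −0.00042 in TA (adjusted p = 0.998).

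Uqcr10, another small subunit, had ratios of 0.38, 0.32, 0.67 and 0.23 in gastrocnemius and 0.21, 0.20, 0.14 and −0.14 in TA. Uqcrh, the acidic hinge protein that lies beside cytochrome c1, had 0.41, 0.29, 0.51 and 0.14 and 0.28, 0.16, 0.059 and 0.025. All gastrocnemius arrays of both genes were above 0, the muscles did not overlap for Uqcr10, and for Uqcrh gastrocnemius pair 4 lay inside the TA range. Both rose in gastrocnemius, Uqcr10 by a log2 ratio of 0.40 (adjusted p = 0.052) and Uqcrh by 0.34 (adjusted p = 0.0635). In TA their means were 0.10 and 0.13 (adjusted p = 0.444 and 0.283). The other probes were 0.45 for Uqcrh (adjusted p = 0.0357) and 0.39 and 0.26 for Uqcr10 (adjusted p = 0.0583 and 0.108) in gastrocnemius, and the last of these was below 0 in TA (−0.12). Without gastrocnemius pair 3 and without pair 4 the adjusted p was 0.17 and 0.163 for Uqcr10, 0.213 and 0.163 for Uqcrh, 0.136 and 0.157 for Uqcrfs1, and 0.122 and 0.157 for Uqcrq. Of 16 alternatives 2 ended the calls of Uqcrfs1 and Uqcrq, 4 that of Uqcr10 (with Agilent's processed signals) and 6 that of Uqcrh (with offset 0). The Uqcrh call was also lost without pair 1 (adjusted p = 0.117) and without pair 2 (0.108).

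The subunits of complex III that fell in TA were Uqcrc1 and Uqcr11. Uqcrc1, a core protein facing the matrix, had ratios of 0.48, −0.60, −0.073 and −0.091 in gastrocnemius and −0.65, −0.41, −0.48 and −0.25 in TA. It was below 0 on all arrays but gastrocnemius pair 1, and the muscles overlapped. Uqcrc1 fell in TA (log2 −0.45, 1.36-fold, adjusted p = 0.0263), the lowest TA mean of all members, and had a mean of −0.072 in gastrocnemius (adjusted p = 0.801). Uqcr11, the smallest subunit, had 0.30, −0.0082, 0.40 and −0.13 in gastrocnemius and −0.29, −0.14, −0.25 and −0.33 in TA, with all TA arrays below all gastrocnemius arrays. Uqcr11 fell in TA (log2 −0.25, adjusted p = 0.0659), with a gastrocnemius mean of 0.14 (adjusted p = 0.435). Without TA pair 1 the adjusted p was 0.147 for Uqcrc1 and 0.236 for Uqcr11, and the Uqcr11 call was lost without any of the other TA pairs too (adjusted p = 0.125, 0.137 and 0.125 without pairs 2, 3 and 4). With loess alone, offset 0, Agilent's processed signals and the deposited ratios Uqcr11 was not called either (10 of 16 alternatives, against 1 of 16 for Uqcrc1).

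Uqcrc2, the second core protein, had 0.77, −0.045, 0.29 and 0.33 in gastrocnemius and −0.096, −1.2e−05, −0.16 and −0.14 in TA. Cyc1, which is cytochrome c1, had 0.68, −0.36, 0.039 and 0.25 and −0.36, −0.077, −0.16 and −0.33. Uqcrb, which lines the ubiquinone site, had 0.50, −0.18, 0.66 and 0.21 and 0.19, −0.028, −0.010 and −0.061. In these 3 genes gastrocnemius pair 2 was below 0 and pair 1 or pair 3 the highest, and the muscles overlapped. None of the 3 was called in either muscle by limma, while SAM called Uqcrc2 higher in gastrocnemius and Cyc1 lower in TA: the gastrocnemius means were 0.34, 0.15 and 0.30 (adjusted p = 0.148, 0.571 and 0.212), and the TA means −0.099, −0.23 and 0.024 (adjusted p = 0.376, 0.101 and 0.86). The dimmest Uqcrb probe was below 0 in TA (−0.17, adjusted p = 0.179).

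Cytochrome c itself, from the gene Cycs, carries single electrons to complex IV. Its ratios were 0.20, 0.17, 0.20 and −0.26 in gastrocnemius and 0.30, 0.32, −0.093 and −0.83 in TA. Pair 4 was the lowest in each muscle and the only gastrocnemius pair below 0. Cycs was called in neither muscle by its brightest probe (means 0.076 and −0.075, limma adjusted p = 0.663 and 0.808), while a second probe gave 0.45 in gastrocnemius (adjusted p = 0.035) and 0.19 in TA (adjusted p = 0.242). The third probe was well above background on 2 arrays in Cy5 only.

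Among the 14 subunits of complex IV, 5 rose in gastrocnemius (median 0.21) and 2 fell in TA (median −0.11), against 9.86% and 7.28% of all genes. The risen ones included the 3 muscle isoforms measured, Cox6a2, Cox7a1 and Cox8b, but none of these 3 calls was kept with loess alone, with offset 0 or with Agilent's processed signals. Cox6a2 and Cox7a1 were not called with the deposited ratios or with the mean of a gene's probes either, and over 16 alternatives the call was lost in 10 for Cox6a2, 14 for Cox7a1 and 7 for Cox8b. Of the other 2 that rose, Cox7a2 was lost in 13 alternatives, among them those 5, no background correction and no filter, and Cox6c in 6, among them Agilent's processed signals. Cox6a2 had ratios of 0.71, 0.056, 0.43 and 0.27 in gastrocnemius and 0.37, −0.23, −0.34 and −0.18 in TA, all above 0 in gastrocnemius and above 0 on pair 1 alone in TA. Its widely expressed counterpart Cox6a1 had 0.12, 0.34, −0.086 and 0.019 and 0.32, 0.17, 0.47 and −0.25. Cox6a2 rose in gastrocnemius (log2 0.36, adjusted p = 0.0964) and averaged −0.095 in TA (adjusted p = 0.621), and Cox6a1 averaged 0.10 and 0.18 (adjusted p = 0.515 and 0.343). The 2 isoforms were not tested against each other.

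For Cox7a1 the ratios were 0.33, 0.20, 0.41 and 0.10 in gastrocnemius and 0.14, 0.0094, −0.36 and −0.82 in TA. Cox7a2, expressed in most tissues, had 0.24, 0.26, 0.61 and 0.13 and 0.12, −0.12, −0.26 and −0.26. Both isoforms were above 0 on all 4 gastrocnemius arrays, and in TA pair 1 was above 0 and pairs 3 and 4 below 0, so that the muscles overlapped for Cox7a1 and not for Cox7a2. Both rose in gastrocnemius, by 0.26 (adjusted p = 0.0989) and 0.31 (adjusted p = 0.0969), and averaged −0.26 and −0.13 in TA (adjusted p = 0.278 and 0.357). Cox8b had 0.74, 0.15, 0.43 and 0.27 in gastrocnemius and 0.25, −0.019, −0.16 and −0.089 in TA. Its counterpart Cox8a had 0.059, −0.053, −0.21 and −0.29 and −0.10, −0.24, 0.010 and −0.41, below 0 on 3 of 4 arrays of each muscle. Cox8b rose in gastrocnemius (log2 0.40, adjusted p = 0.0699) with a TA mean of −0.0054 (adjusted p = 0.974), whereas Cox8a had the lowest gastrocnemius mean of complex IV (−0.12, adjusted p = 0.389) and −0.18 in TA (adjusted p = 0.197).

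Cox6c, a small subunit of the membrane part, was the fifth to rise in gastrocnemius. Its ratios were 0.44, 0.38, 0.63 and 0.11 in gastrocnemius and 0.43, 0.17, 0.084 and −0.23 in TA, above 0 on 7 of 8 arrays with the muscles overlapping. Cox6c rose by 0.39 (adjusted p = 0.0623) in gastrocnemius and averaged 0.11 in TA (adjusted p = 0.502). Leaving out pair 3 or pair 4 of gastrocnemius ended the calls of Cox6c (adjusted p = 0.208 and 0.157), Cox6a2 (0.276 and 0.224), Cox7a1 (0.296 and 0.193), Cox7a2 (0.276 and 0.193) and Cox8b (0.221 and 0.187). Without pair 1 they were lost as well (adjusted p = 0.108, 0.185, 0.187, 0.13 and 0.123 in the same order), and without pair 2 those of Cox6c (0.113), Cox7a1 (0.146) and Cox7a2 (0.149).

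In TA the subunits that fell were Cox6b1 and Cox4i1. Cox6b1 sits on the outer face of the enzyme and links 2 enzymes into a dimer. Its ratios were 0.28, −0.060, 0.29 and −0.12 in gastrocnemius and −0.51, −0.30, −0.48 and −0.48 in TA, with every TA array below every gastrocnemius array. Cox6b1 fell in TA (log2 −0.44, 1.36-fold, interval −0.60 to −0.28, limma adjusted p = 0.0198) and averaged 0.097 in gastrocnemius (adjusted p = 0.563). Cox4i1, the common isoform of the largest nuclear-encoded subunit, had 0.36, 0.091, 0.24 and 0.050 in gastrocnemius and −0.20, −0.11, −0.21 and −0.52 in TA. All 4 gastrocnemius arrays were above 0 and all 4 TA arrays below 0. Cox4i1 fell in TA (log2 −0.26, adjusted p = 0.095) with a gastrocnemius mean of 0.19 (adjusted p = 0.199). Its isoform Cox4i2, best known from lung, had 0.067, −0.23, 0.094 and −0.082 and −0.49, −0.082, −0.059 and −0.0047 and was called in neither muscle (means −0.038 and −0.16, adjusted p = 0.801 and 0.298). The Cox4i1 call was lost in 12 of 16 alternatives, among them loess alone, quantile alone, offset 0, no background correction, the deposited ratios and the mean of a gene's probes, and that of Cox6b1 in 1. Without TA pair 1 the adjusted p was 0.123 for Cox6b1 and 0.253 for Cox4i1, and the Cox4i1 call was also lost without pair 2 (0.144), pair 3 (0.157) and pair 4 (0.203), its log2 ratio being −0.17 in the last case.

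The remaining subunits of complex IV were called in neither muscle by limma, while SAM called Cox5a, Cox7b and Cox7c higher in gastrocnemius. Cox5a had ratios of 0.21, 0.073, 0.19 and 0.36 in gastrocnemius and 0.37, 0.14, 0.092 and −0.30 in TA. Cox5b, a zinc-binding subunit on the matrix side, had 0.43, −0.22, 0.22 and −0.0062 and −0.16, −0.14, 0.040 and −0.24. Both overlapped between the muscles, and TA pair 4 was the lowest array of both genes. Cox7b had 0.34, 0.13, 0.32 and 0.064 and 0.066, 0.024, −0.048 and −0.18, and Cox7c had 0.19, 0.34, 0.52 and −0.033 and 0.24, −0.051, −0.20 and −0.24. The gastrocnemius means of Cox5a, Cox5b, Cox7b and Cox7c were 0.21, 0.11, 0.21 and 0.25 (limma adjusted p = 0.145, 0.591, 0.151 and 0.165). In TA they were 0.076, −0.12, −0.034 and −0.064 (adjusted p = 0.671, 0.306, 0.792 and 0.684). A second Cox7c probe gave 0.28 in gastrocnemius with an adjusted p of 0.0777.

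Cox7a2l was listed as a supercomplex factor of complexes III and IV, a role not measured here. It had ratios of 0.017, −0.14, 0.36 and 0.18 in gastrocnemius and 0.067, 0.016, 0.072 and −0.037 in TA. Its TA arrays lay close to 0 and inside the gastrocnemius range. Cox7a2l was called in neither muscle (means 0.10 and 0.029, limma adjusted p = 0.528 and 0.805), but its dimmest probe gave −0.16 in gastrocnemius (adjusted p = 0.377) and −0.45 in TA (adjusted p = 0.0154).

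Of the 8 assembly and copper delivery factors, 7 were measured. By limma 0 rose in gastrocnemius (median 0.060) and 2 fell in TA (median −0.19), against 9.86% and 7.28% of all genes. In gastrocnemius 1 of these factors had an unadjusted p under 0.05, against 29% of all genes. Cox10 makes haem O, the precursor of the haem A that complex IV carries, and Sco2 delivers copper to the copper centre that receives electrons from cytochrome c. Cox10 had ratios of 0.30, −0.23, −0.013 and 0.18 in gastrocnemius and −0.48, −0.17, −0.54 and −0.38 in TA. Sco2 had 0.32, −0.27, −0.019 and −0.10 in gastrocnemius and −0.66, −0.21, −0.35 and −0.55 in TA. All TA arrays of both genes were below 0, with pairs 1 and 3 lowest for Cox10 and pairs 1 and 4 lowest for Sco2. Cox10 fell in TA by 0.39 on the log2 scale (adjusted p = 0.0359) and Sco2 by 0.44 (adjusted p = 0.0325), with gastrocnemius means of 0.060 and −0.019 (adjusted p = 0.739 and 0.929). Without TA pair 1 the adjusted p was 0.182 for Cox10 and 0.173 for Sco2.

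Cox15, which converts haem O to haem A, had ratios of 0.19, 0.055, 0.32 and 0.15 in gastrocnemius and 0.16, 0.27, 0.0045 and 0.081 in TA, all above 0. Cox11, which delivers copper to the oxygen-reducing site, had 0.044, 0.33, 0.39 and 0.057 and 0.26, 0.31, 0.041 and 0.042, also above 0 on all 8 arrays. The copper-binding factor Cox19 had 0.31, 0.053, 0.25 and −0.19 in gastrocnemius and −0.29, −0.093, −0.051 and −0.45 in TA, below 0 on all 4 TA arrays. Cox19 and the genes that follow were on both sides of 0 in gastrocnemius. Surf1, needed early in the assembly of complex IV, had −0.092, −0.17, 0.14 and 0.12 and 0.0073, −0.031, −0.15 and −0.13. Sco1, a copper chaperone related to Sco2, had the lowest gastrocnemius mean of these factors and ratios of −0.12, 0.042, 0.0031 and −0.050 and −0.32, −0.061, −0.13 and −0.27. These 5 genes were called in neither muscle, with gastrocnemius means between −0.032 for Sco1 and 0.21 for Cox11 (limma adjusted p = 0.805 and 0.194) and TA means between −0.22 for Cox19 and 0.16 for Cox11 (adjusted p = 0.14 and 0.211). A second Cox15 probe was below 0 in both muscles (−0.047 and −0.16, adjusted p = 0.777 and 0.209). Across the list 15 further probes were measured, and 12 of them had the sign of the brightest probe of their gene in gastrocnemius and 8 in TA.

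**Figure D2:**
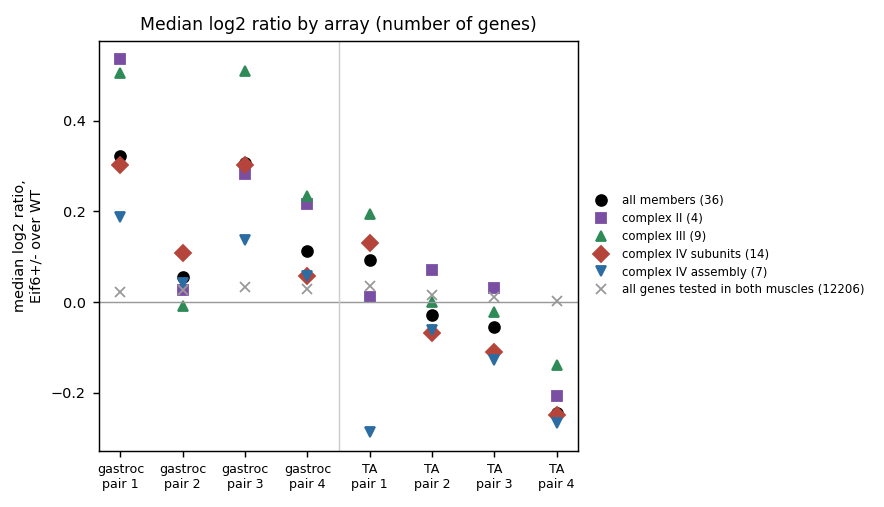
Median log2 ratio of Eif6+/- over WT on each of the 8 arrays, for all members, for the subunits of complexes II, III and IV, for the assembly factors and for all genes tested in both muscles. All genes stay between 0.0037 and 0.037, while the members range from −0.24 on TA pair 4 to 0.32 on gastrocnemius pair 1.

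Whether the genotype ratio differed between the muscles was tested next. A dye effect that is constant for a probe cancels in this difference, which shares its samples with both genotype ratios. The ratio was higher in gastrocnemius than in TA for 35 of 36 members in value, all but Cox6a1 (−0.076), with a median difference of 0.29 against 0.0071 for all 12206 genes. By limma 0 members and 0 genes passed an adjusted p of 0.1 (0% of genes), and the lowest adjusted p of a member was 0.636. An unadjusted p under 0.05 was found for 18 members, all with a positive difference, against 4.7% of genes with a positive and 3.47% with a negative one, and for 11 members without gastrocnemius pair 1, without its pair 3 or without TA pair 4 (6.11%, 4.93% and 6.64% of genes). So a call in one muscle without a call in the other is not shown to be a difference between the muscles for any of these genes.

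The arrays of the muscles did not overlap for 7 members, against 4.06% of all genes, and these were Uqcrfs1, Uqcrq, Uqcr10, Uqcr11, Cox4i1, Cox6b1 and Cox7a2. Their differences were 0.55, 0.34, 0.30 and 0.39 for the complex III genes (unadjusted p from limma = 0.00228, 0.0149, 0.0339 and 0.0105). For Cox4i1, Cox6b1 and Cox7a2 they were 0.45, 0.54 and 0.44 (unadjusted p from limma = 0.00299, 0.000922 and 0.00652), and Cox6b1 had the lowest unadjusted p of the list. By role the median difference was 0.37 in complex III, 0.30 in the complex IV subunits, 0.27 in complex II and 0.16 in the assembly factors. Sdhb differed by 0.52 (unadjusted p from limma = 0.0216), Cox7a1 by 0.52 (0.0187), Cox10 by 0.45 (0.00612) and Sco2 by 0.42 (0.0133), and Cycs by 0.15 (0.532).

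The muscles themselves were compared within each genotype and dye, WT with WT and Eif6+/- with Eif6+/-. In WT mice the members were lower in gastrocnemius than in TA: 27 of 36 fell and 0 rose by limma, against 14.1% and 8.76% of 11852 genes, and 31 members had an unadjusted p under 0.05 against 32.1% of genes. The median difference was −0.43 against −0.034 for all genes. In Eif6+/- mice 7 of 36 were lower and 0 higher, against 9.97% and 6.73% of 12620 genes, 10 members had an unadjusted p under 0.05 against 28.2% of genes, and the median was −0.12 against −0.024. Without gastrocnemius pair 2 the Eif6+/- median was −0.070 against −0.021 for all genes. With Agilent's processed signals 32 members were lower in WT and 24 in Eif6+/-, against 22.2% and 24.3% of all genes. The medians were then −0.66 and −0.32 against −0.14 and −0.11 for all genes, and the cause of this shift was not tested. The groups did not overlap for 21 members in WT and 6 in Eif6+/-, against 21.5% and 18.1% of genes. The WT and Eif6+/- comparisons are built from the channels that also make the ratios, so the 4 comparisons are not independent. In the Eif6+/- comparison 4 members were called without gastrocnemius pair 1 or without TA pair 2 (5.23% and 5.01% of all genes lower). In the WT comparison between 20 and 27 were called when any 1 array was left out (8.13% to 13% of all genes lower).

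**Figure D3:**
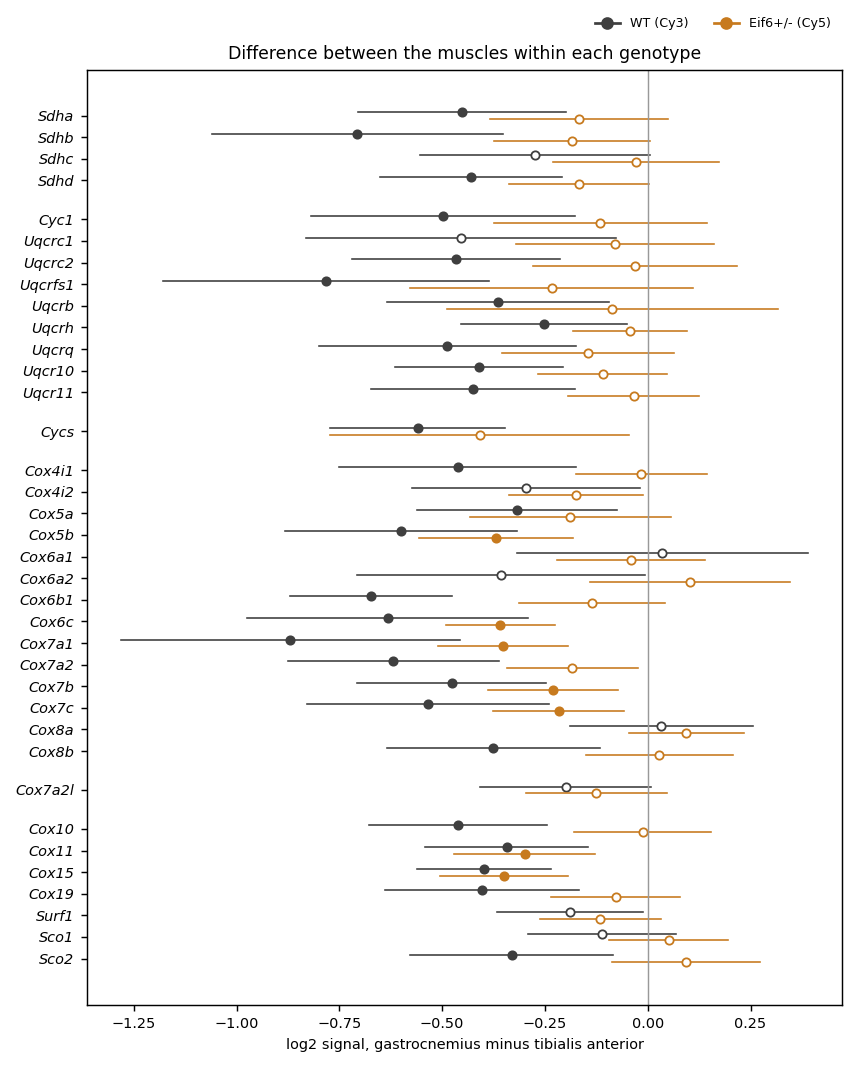
Log2 difference of gastrocnemius minus TA for each measured member, in WT (black) and Eif6+/- (orange) mice, with 95% confidence intervals from limma; filled points were called at an adjusted p under 0.1 and open points were not. In WT 27 of 36 points are called below 0, and in Eif6+/- 7 of 36, against 14.1% and 9.97% of all genes. With Agilent's processed signals, not drawn, the counts are 32 and 24, against 22.2% and 24.3% of all genes.

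Cox7a1, the muscle isoform, showed the largest WT difference of the list. Its WT signals (log2) were 15.88, 15.84, 15.66 and 16.00 in gastrocnemius and 16.21, 16.60, 16.78 and 17.25 in TA. In Eif6+/- mice they were 16.20, 16.04, 16.07 and 16.10 and 16.35, 16.61, 16.43 and 16.43. All 4 gastrocnemius signals lay below all 4 TA signals in each genotype, and TA pair 4 was the highest in WT. Cox7a1 was lower in gastrocnemius by a log2 difference of −0.87 in WT (1.83-fold, interval −1.28 to −0.46, limma adjusted p = 0.018) and of −0.35 in Eif6+/- (adjusted p = 0.0215). Cox7a2 had WT signals of 13.44, 13.38, 13.18 and 13.73 and 13.90, 14.08, 14.10 and 14.12, without overlap, and differed by −0.62 in WT (adjusted p = 0.0113) and −0.18 in Eif6+/- (adjusted p = 0.146).

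Cox6b1 had the lowest adjusted p of the WT comparison among the members. Its WT signals were 12.54, 12.62, 12.59 and 12.87 in gastrocnemius and 13.36, 13.27, 13.27 and 13.40 in TA, with no overlap, a difference of −0.67 (1.59-fold, limma adjusted p = 0.00358). In Eif6+/- mice its difference was −0.14 (adjusted p = 0.316). Uqcrfs1 had WT signals of 14.47, 13.95, 14.48 and 14.92 and 15.08, 15.24, 15.15 and 15.49, pair 2 of gastrocnemius the lowest and no overlap, and differed by −0.78 in WT (adjusted p = 0.0234) and −0.23 in Eif6+/- (adjusted p = 0.376). Sdhb had WT signals of 14.75, 15.19, 14.78 and 15.34 in gastrocnemius and 15.55, 15.71, 15.57 and 16.06 in TA, again apart, and differed by −0.71 in WT (adjusted p = 0.0221) and −0.18 in Eif6+/- (adjusted p = 0.211).

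The genes lower in gastrocnemius in both genotypes were Cox5b, Cox6c, Cox7a1, Cox7b and Cox7c among the subunits of complex IV and Cox11 and Cox15 among the assembly factors. Cox6c had Eif6+/- signals of 15.62, 15.54, 15.56 and 15.65 in gastrocnemius and 15.96, 16.02, 15.88 and 15.95 in TA, which did not overlap. It differed by −0.36 in Eif6+/- (limma adjusted p = 0.0106) and by −0.63 in WT (adjusted p = 0.0287). Cox5b had Eif6+/- signals of 14.95, 14.65, 14.92 and 15.01 and 15.33, 15.18, 15.18 and 15.31, also apart, with differences of −0.37 (adjusted p = 0.0329) and, in WT, −0.60 (adjusted p = 0.0174). Cox15 had Eif6+/- signals of 8.47, 8.40, 8.66 and 8.54 and 8.93, 8.90, 8.82 and 8.82 and Cox11 of 11.58, 11.63, 11.80 and 11.50 and 11.85, 12.04, 11.88 and 11.93. Neither gene overlapped between the muscles. Cox15 differed by −0.35 and Cox11 by −0.30 (adjusted p = 0.0209 and 0.0459), and in WT by −0.40 and −0.34 (0.0109 and 0.0361). Cox7b and Cox7c differed by −0.23 and −0.22 in Eif6+/- (limma adjusted p = 0.0775 and 0.0934). Both calls were lost with offset 0, with no filter, at a threshold of 0.05 and without any single array but TA pair 3 (adjusted p of at most 0.176 and 0.218). That of Cox7c was also lost with no background correction and with the pair number as a block. Over 16 alternatives the call was lost in 10 for Cox7b and 12 for Cox7c. The Cox11 call was lost without gastrocnemius pair 1, pair 4 or TA pair 2 (adjusted p = 0.112, 0.11 and 0.115).

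By role, 3 of 4 complex II subunits were lower in WT gastrocnemius, against 14.1% of all genes. Sdha was at −0.45 and Sdhd at −0.43 beside Sdhb, while Sdhc was at −0.27 (limma adjusted p = 0.0317, 0.0243 and 0.177). The second Sdhc probe was at −0.64 (adjusted p = 0.00589) and, in Eif6+/-, at −0.36 (adjusted p = 0.0365). In complex III 8 of 9 were lower, and the exception was Uqcrc1 at −0.45 (adjusted p = 0.106). Cyc1 (−0.50), Uqcrq (−0.49), Uqcrc2 (−0.47), Uqcr11 (−0.43), Uqcr10 (−0.41), Uqcrb (−0.36) and Uqcrh (−0.25) followed Uqcrfs1 in size, with adjusted p between 0.0215 and 0.0968. The calls of Uqcrb and Uqcrh were lost without any single array but gastrocnemius pair 4 and TA pair 1 (adjusted p of at most 0.181 and 0.222), that of Uqcrq without gastrocnemius pair 3 or TA pairs 2 or 4 (at most 0.124), and that of Cyc1 without TA pairs 1 or 4 (at most 0.125). Offset 0 and no filter ended the calls of Uqcrb and Uqcrh too, and no background correction and the stricter filter that of Uqcrh. Cycs was at −0.56 (adjusted p = 0.00858), with WT signals of 14.89, 14.88, 14.88 and 15.02 in gastrocnemius and 15.41, 15.34, 15.42 and 15.73 in TA, and at −0.41 in Eif6+/- (adjusted p = 0.151; second probe −0.31, adjusted p = 0.0493).

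Of the complex IV subunits 10 of 14 were lower in WT gastrocnemius, against 14.1% of all genes. Cox7c (−0.54), Cox7b (−0.48), Cox4i1 (−0.46), Cox8b (−0.38) and Cox5a (−0.32) completed that group of 10 (limma adjusted p = 0.0301, 0.0189, 0.0453, 0.0619 and 0.0854). Those not called were Cox6a1 (0.036), Cox6a2 (−0.36), Cox8a (0.033) and Cox4i2 (−0.30), with adjusted p of 0.908, 0.162, 0.858 and 0.145. Cox7a2l was at −0.20 (adjusted p = 0.185). Of the assembly factors Cox10 (−0.46), Cox19 (−0.40) and Sco2 (−0.33) joined Cox15 and Cox11 (adjusted p = 0.0173, 0.0367 and 0.0786), and Surf1 and Sco1 were not called (−0.19 and −0.11, adjusted p = 0.147 and 0.39). Offset 0 ended the calls of Cox5a and Sco2, no filter these and that of Cox8b, and left-out arrays ended some as well. Cox5a was lost without any single array but gastrocnemius pair 4 and TA pair 1 (adjusted p of at most 0.194), Cox8b without gastrocnemius pairs 1 or 3 or TA pairs 2, 3 or 4 (at most 0.149), Cox4i1 without gastrocnemius pair 3 (0.101), and Sco2 without gastrocnemius pairs 1 or 3 or TA pairs 1 or 4 (at most 0.182).

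Fibre type was described by marker genes of the contractile apparatus, since gastrocnemius and TA hold slow and fast fibres in unequal amounts. All 5 skeletal muscle markers, 7 slow fibre markers and 7 fast fibre markers were well above background in 16 of 16 channels. The summed signal of the 7 slow fibre genes, of which Myl3 was the brightest, was 135500, 30470, 46990 and 135400 in Eif6+/- gastrocnemius pairs 1 to 4 and 14500, 65010, 41200 and 153700 in their WT partners. In TA it was 12190, 24140, 9969 and 14020 in Eif6+/- and 12120, 34660, 10360 and 38230 in WT. Gastrocnemius pair 1 thus held the lowest WT and the highest Eif6+/- value of that muscle, while in pairs 2 and 4 the WT value was the higher one. By limma 0 of the 7 were called in gastrocnemius (0 with an unadjusted p under 0.05), and 3 fell in TA (Tnnt1 −0.90, Tnni1 −0.80 and Tnnc1 −0.41, adjusted p = 0.0237, 0.0246 and 0.035). In gastrocnemius over TA 6 of 7 were higher in WT and 7 of 7 in Eif6+/-, led by Myl2 (4.59 and 5.97, adjusted p = 0.0113 and 0.000204).

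Myh2, the myosin of IIA fibres, had signals of 140200, 89740, 95450 and 132500 in Eif6+/- gastrocnemius and 9290, 62370, 36010 and 85910 in WT. In TA they were 26050, 50760, 19630 and 24420 and 9609, 52210, 15450 and 71470. Its WT signal was lowest on pair 1 in each muscle, and its log2 ratio was 1.62 in gastrocnemius (limma adjusted p = 0.104), while gastrocnemius over TA was 1.99 in Eif6+/- (adjusted p = 0.00448). Myh1, the myosin of IIX fibres, had 90140, 62370, 62370 and 84800 in Eif6+/- gastrocnemius and 24620, 48500, 35610 and 48860 in WT. In TA it had 115600, 118300, 89210 and 107200 and 73410, 97000, 89430 and 179400. Myh1 rose in Eif6+/- gastrocnemius (0.96, adjusted p = 0.0521) and was lower in gastrocnemius than in TA in WT (−1.45, adjusted p = 0.0142) and in Eif6+/- (−0.53, adjusted p = 0.0448). Myh4, the IIB myosin, rose in TA (0.80, limma adjusted p = 0.0119), with signals of 158000, 156000, 151100 and 159200 in Eif6+/- and 83530, 106600, 96600 and 74490 in WT, and in gastrocnemius of 130600, 149400, 148300 and 153300 and 144600, 97000, 101900 and 115600. The genotype ratio of gastrocnemius minus that of TA was above 0 for 7 of 7 slow fibre genes (median 1.02) and 2 of 7 fast fibre markers, against 52.2% of all genes. It was 1.57 for Myh2, 0.91 for Myh1 and −0.45 for Myh4, with 0 of these markers called by limma. The slow fibre genes, Myh1 and, in Eif6+/-, Myh2 thus differed between the muscles, and their signals differed between pairs. Of the 7 fast fibre markers 0 were called between the muscles by limma in either genotype (0 with an unadjusted p under 0.05). The part of the fibre markers in the results was not tested. In whole muscle, fewer fibres of a type and less RNA per fibre cannot be told apart.

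**Figure D4:**
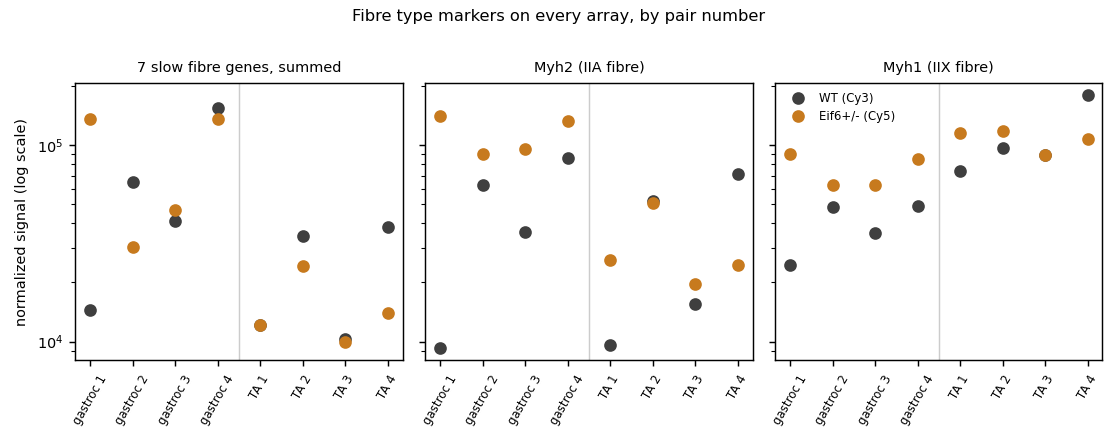
Summed signal of 7 slow fibre markers and signals of Myh2 and Myh1 on each array, in the Eif6+/- (Cy5) and WT (Cy3) channel, on a log axis. Gastrocnemius pair 1 has the widest gap between the channels in all 3 panels.

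Further markers were described in the same way. Of the 7 general fast fibre genes (brightest Pvalb) 2 fell in gastrocnemius (Actn3 and Atp2a1), and in TA 1 rose (Tnnc2) and 2 fell (Atp2a1 and Mylpf). Their summed signal was 780900, 839200, 819500 and 788700 and 899600, 831900, 757400 and 853800 in Eif6+/- and WT gastrocnemius, and 793900, 762000, 754800 and 846600 and 698800, 857400, 836300 and 684400 in TA. Of the 5 skeletal muscle genes (brightest Acta1) 2 fell in gastrocnemius (Des and Ckm) and 2 in TA (Des and Mb), and Mb, which encodes the oxygen store myoglobin, was lower in WT gastrocnemius than in WT TA (−1.35, limma adjusted p = 0.0384). Their sums were 457500, 394900, 384600 and 445500 and 394500, 466100, 420300 and 488000 in gastrocnemius and 429100, 420600, 402700 and 408100 and 493700, 524700, 496600 and 470600 in TA. Of 2 cardiac genes Myh6 was lower in WT gastrocnemius than in WT TA (−1.54, adjusted p = 0.00617) and Nppa was not well above background in any channel. The cardiac sums were 297.7, 363.9, 209.8 and 317.7 and 199.5, 324.3, 220.6 and 308.4 in gastrocnemius and 584.3, 513.8, 275.2 and 594.1 and 509.4, 523, 650.5 and 819.7 in TA.

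Fat was followed by 7 genes (brightest Fabp4), of which 5 were measured, Lep was above background in 4 of 16 channels and Ucp1, which defines brown fat, in 0. Adipoq fell in gastrocnemius (−0.64, limma adjusted p = 0.0998), and Cidec and Plin1 rose in TA (0.60 and 0.51, adjusted p = 0.0709 and 0.0791). In gastrocnemius over TA 3 were higher in WT, and in Eif6+/- 2 were higher and 1 lower. Fat sums were 13020, 11980, 11610 and 12730 in Eif6+/- and 16540, 13400, 10990 and 22180 in WT gastrocnemius, and 12420, 13010, 16200 and 11640 and 13110, 12510, 13120 and 14250 in TA. Of 3 red blood cell genes (brightest Hba-a1) 0 were called in gastrocnemius by limma (3 with an unadjusted p under 0.05), and all 3 fell in TA (Hbb-bs −1.30, adjusted p = 0.0167). Their sums were 11930, 12860, 11930 and 13710 and 12100, 20900, 22220 and 15420 in gastrocnemius and 11700, 7229, 9985 and 12840 and 19510, 17920, 15070 and 16990 in TA. Of 6 leukocyte genes (brightest Cd74), Cd68 had no named probe, Ptprc was above background in 8 of 16 channels, Cd74 fell in gastrocnemius (−1.10, adjusted p = 0.045) and S100a9 in TA (−1.61, adjusted p = 0.0344). Their sums were 1484, 1579, 1538 and 1372 and 2966, 2440, 6448 and 1885 in gastrocnemius and 1750, 1076, 1296 and 1763 and 2299, 1954, 1935 and 2038 in TA.

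Connective tissue (4 genes, brightest Col1a2) had 0 calls between the genotypes by limma (1 in gastrocnemius and 0 in TA with an unadjusted p under 0.05), and 3 genes were higher in gastrocnemius than in TA in WT and 1 in Eif6+/-. Its sums were 167700, 112600, 109000 and 163900 and 164200, 109400, 281200 and 130500 in gastrocnemius and 70950, 51310, 169800 and 73830 and 59980, 91780, 37990 and 84530 in TA. Endothelium (3 genes, brightest Kdr) had Pecam1 lower in TA (−0.32, limma adjusted p = 0.065) and Cdh5 lower in Eif6+/- gastrocnemius than in TA, with sums of 2223, 2561, 2892 and 2347 and 2558, 3183, 2668 and 2800 in gastrocnemius and 2596, 2962, 2429 and 2891 and 3060, 2893, 2431 and 2965 in TA. The genotype ratio of gastrocnemius minus that of TA was above 0 for 3 of 3 red blood cell genes, 1 of 5 fat genes, 0 of 2 leukocyte genes, 0 of 4 connective tissue genes and 1 of 3 endothelium genes. Every marker named here as defining a cell type, apart from Nppa, Ucp1 and Cd68, was above background in at least 1 channel, and the part of these cells in the members' values was not tested.

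The rest of the respiratory chain was counted in the same comparisons. Of all genes 9.86% rose and 5.53% fell in gastrocnemius, and 8.98% rose and 7.28% fell in TA. In gastrocnemius over TA 14.1% of all genes were lower in WT and 9.97% in Eif6+/-. Of 36 structural subunits of complex I, 15 rose in gastrocnemius (median 0.26), among them Ndufb2 (0.48), Ndufb3 (0.45), Ndufab1 (0.35), Ndufb5 (0.46) and Ndufa8 (0.45), with limma adjusted p between 0.0357 and 0.0544. In TA 1 rose (Ndufc1, 0.47) and 5 fell. In gastrocnemius over TA 31 of 36 were lower in WT and 7 in Eif6+/-, and Ndufa8 was at −0.88 and −0.62 (adjusted p = 0.00377 and 0.0115). Of 17 subunits of ATP synthase, 8 rose in gastrocnemius (median 0.28), among them Atp5g3 (0.69, limma adjusted p = 0.0311), Atp5g1 (0.47) and Atp5b (0.70). In TA Atp5b rose (0.38, adjusted p = 0.0357) and Atp5d fell (−0.25, adjusted p = 0.0745), and in gastrocnemius over TA 12 were lower in WT and 2 in Eif6+/-. These lists share arrays with the members, so their counts are not independent of them.

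Genes of complexes II, III and IV outside the list were counted as well. Beside them, 9.86% of all genes rose in gastrocnemius, and 8.98% rose and 7.28% fell in TA. In TA 29.1% of all genes had an unadjusted p under 0.05 by limma. In gastrocnemius over TA 14.1% of all genes were lower in WT and 9.97% in Eif6+/-. Of 4 complex II assembly genes, Sdhaf2 and Sdhaf4 rose in gastrocnemius (both 0.37, limma adjusted p = 0.0461 and 0.0654), 0 were called in TA (0 with an unadjusted p under 0.05), and 3 were lower in gastrocnemius than in TA in WT and 1 in Eif6+/-. Of 7 further complex III genes 5 were measured: Bcs1l and Ttc19 rose in gastrocnemius (0.37 and 0.41, adjusted p = 0.0418 and 0.0674) and Uqcc1 fell in TA (−0.40, adjusted p = 0.0375). In gastrocnemius over TA 3 of these were lower in WT and 1, Ttc19, in Eif6+/- (−0.46, adjusted p = 0.0275). Of 26 further complex IV genes 18 were measured, and Lrpprc, which stabilises mitochondrial messenger RNA, rose in gastrocnemius (0.72, adjusted p = 0.0269) and in TA (0.32, adjusted p = 0.0412). In gastrocnemius over TA 10 were lower in WT and 5 in Eif6+/-, and Ndufa4, a subunit that belongs to complex IV, was at −0.63 and −0.48 (adjusted p = 0.0128 and 0.00997). The mitochondrially encoded mt-Co1, mt-Co2, mt-Co3 and mt-Cytb, and Coa1, were not analysed here.

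Nuclear regulators of respiratory genes made up the last list, with 16 genes. Of these 7 rose in gastrocnemius (median 0.30), against 9.86% of all genes. Among the 7 were Tfb1m (0.37), Ppargc1a (0.33), Polrmt (0.29), Tfb2m (0.41) and Esrrb (0.65), with limma adjusted p between 0.0438 and 0.0755. Tfb1m and Tfb2m act in the mitochondrial matrix on ribosomal RNA and on transcription, and Ppargc1a encodes a coactivator of mitochondrial gene programs. In TA 2 of the 16 rose, Tfb2m and Tfb1m (0.32 and 0.24, limma adjusted p = 0.0598 and 0.0764), against 8.98% of all genes. In gastrocnemius over TA 9 were lower in WT, against 14.1% of all genes. Esrra was among the 9 (−0.45, limma adjusted p = 0.0174), and the lowest WT difference of the list was −0.99. In Eif6+/- 2 were lower (Tfb2m and Tfam, −0.24 and −0.19, limma adjusted p = 0.0813 and 0.0921), against 9.97% of all genes.

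Promoter sequence is shown because several members were called in one direction and 4 factors are known for binding in front of respiratory genes. The promoter table used held a window of 300 bases (250 before to 50 after the start) in build GRCm38.p6 for 27 of the 37 members. Since it held none for 10 members, a check of motifs over the whole list is void, and matches are given gene by gene. Sdhc, Cyc1, Uqcrc2, Uqcrb, Uqcrq, Cox4i1, Cox4i2, Cox6a2, Cox6c and Cox17 are named only. Each window was searched on both strands for the exact letters GCGCATGC (NRF1), CCGGAAGT (GABPA, also called NRF2), AAGGTCA (estrogen-related receptors) and AAGATGGC (YY1), and 0 matches of different factors overlapped, while the 2 NRF1 matches in the Uqcrc1 window are the same letters on opposite strands, shifted by 2 bases. The NRF1 letters occur in 2.71% of all 32851 windows and, among the members, in those of Sdhb, Uqcrc1, Uqcr11, Cycs and Cox6a1. The GABPA letters occur in 3.89% of all windows and in those of Uqcrh, Uqcr11, Cox8a, Cox10 and Cox15. The estrogen-related receptor letters occur in 4.72% of all windows and in that of Sdhd, and the YY1 letters in 2.75% and in that of Cox10. Windows are printed for the members called in a genotype comparison whose window held a match, a choice made after the matches were seen, 5′ to 3′ on the strand of the gene with matched letters of either strand in capitals. They are Sdhb at chr4:140961021-140961320 (plus strand), Uqcrc1 at chr9:108936398-108936697 (plus), Uqcrh at chr4:116075021-116075320 (minus), Uqcr11 at chr10:80406772-80407071 (minus) and Cox10 at chr11:64079423-64079722 (minus).
Sdhb: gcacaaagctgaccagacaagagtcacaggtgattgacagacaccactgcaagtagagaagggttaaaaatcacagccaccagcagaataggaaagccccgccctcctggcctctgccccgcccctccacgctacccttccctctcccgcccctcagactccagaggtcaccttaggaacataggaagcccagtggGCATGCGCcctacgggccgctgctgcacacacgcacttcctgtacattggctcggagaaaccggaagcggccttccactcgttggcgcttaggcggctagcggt
Uqcrc1: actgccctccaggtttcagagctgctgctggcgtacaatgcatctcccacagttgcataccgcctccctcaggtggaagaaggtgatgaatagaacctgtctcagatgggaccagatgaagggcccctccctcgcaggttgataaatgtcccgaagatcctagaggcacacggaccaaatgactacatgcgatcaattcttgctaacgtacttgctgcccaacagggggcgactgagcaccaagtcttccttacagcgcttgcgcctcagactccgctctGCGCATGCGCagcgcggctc
Uqcrh: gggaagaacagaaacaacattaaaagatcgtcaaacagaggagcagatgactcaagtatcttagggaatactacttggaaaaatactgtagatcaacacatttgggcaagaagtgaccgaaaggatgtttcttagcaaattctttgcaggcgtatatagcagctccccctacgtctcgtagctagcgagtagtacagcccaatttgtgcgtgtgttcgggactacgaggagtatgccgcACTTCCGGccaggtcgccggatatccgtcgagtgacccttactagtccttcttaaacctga
Uqcr11: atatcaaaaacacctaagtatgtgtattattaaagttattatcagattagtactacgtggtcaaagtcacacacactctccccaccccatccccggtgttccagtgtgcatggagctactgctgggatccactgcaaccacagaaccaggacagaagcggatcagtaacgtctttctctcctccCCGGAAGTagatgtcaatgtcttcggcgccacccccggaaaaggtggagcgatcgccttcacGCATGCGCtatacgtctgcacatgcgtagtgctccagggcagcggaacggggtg
Cox10: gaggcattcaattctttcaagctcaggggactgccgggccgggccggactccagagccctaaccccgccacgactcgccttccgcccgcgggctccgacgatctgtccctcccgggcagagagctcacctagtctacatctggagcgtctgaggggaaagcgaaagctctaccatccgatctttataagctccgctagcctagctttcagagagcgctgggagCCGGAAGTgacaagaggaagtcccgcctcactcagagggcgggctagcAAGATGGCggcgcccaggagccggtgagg
Sdhb and Uqcrh rose in gastrocnemius and Uqcrc1, Uqcr11 and Cox10 fell in TA, as given above. A match describes letters in the window and is neither a binding site nor a cause, and the absence of a match says only that these letters are not in that window.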

How the data were processed

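The data were Agilent two-colour expression arrays of Eif6+/- (Cy5) and WT (Cy3) muscle, 4 pairs per muscle. Per the file headers, Agilent Feature Extraction 10.5.1.1 gave the median spot and local background intensities, which are not normalized, processed intensities after its own background subtraction and dye normalization, and log10 ratios (Cy5 to Cy3). Other columns are quality marks per spot, per the file headers. The authors deposited log2 ratios too, which matched loess-normalized uncorrected intensities (r of at least 0.999963) with column medians between −0.00441 and 0.00375. No column of sample values was set aside (0 such columns).

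Median intensities were corrected with normexp (offset 50), normalized by loess within arrays (control spots did not count), and brought to equal quantiles over 16 channels (limma 3.58.1, R 4.3.3). Control and outlier spots were dropped, and spots sharing 1 probe averaged. For a genotype ratio a probe had to be marked as well above background, in Cy5 or Cy3, on each of the 4 arrays. For WT or Eif6+/- between muscles it had to be so marked in that channel on each of the 4 arrays of either muscle, and a gene is represented by its brightest probe. Accessions matched a RefSeq table of GRCm38.p6 for 27235 of 28685 probes, used for names and promoters only. Ratios were tested against 0, and muscles against each other, with lmFit and eBayes, adjusted by Benjamini-Hochberg over all tested probes. Every test was tested on simulated data. P-values of a genotype ratio measure the spread between the 4 pairs of a muscle, and they do not cover a constant dye effect. P-values between the muscles measure the spread between arrays, which are treated as independent. The number of arrays limits precision.

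Alternatives were loess or quantile alone, offset 0, uncorrected intensities, the deposited ratios, the processed signals from Agilent, no or a stricter filter, the mean of a gene's probes, a threshold of 0.05, each array left out, the pair number as a block, and SAM. Named were Eif6, all members, and of other lists at most the 5 called genes of lowest adjusted p. Values on every array are given for called members, those with the highest and lowest mean ratio of each role, and isoform pairs. The members, the marker lists and the lists of other respiratory genes and regulators were chosen with earlier results of these data known.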

Additional observations from a re-analysis of the deposited data

Results flagged for a closer look

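In 238 groups of 4 samples, 14 values stood far from the other samples of their group, measured by the gap to the nearest sample over the whole range; chance alone marks about 1 in 20 such groups. Among log2 ratios these were Cycs on gastrocnemius pair 4 (−0.2633, which is also the cytochrome c median of that array, −0.2633), Cox4i2 on TA pair 1 (−0.4923) and Cox6b1 on TA pair 2 (−0.2999). Among Eif6+/- signals on the log2 scale they were Uqcrc2 on TA pair 3 (14.45), Uqcrb on gastrocnemius pair 2 (14.82) and on TA pair 4 (15.72), Cycs on gastrocnemius pair 4 (14.75), Cox4i1 on gastrocnemius pair 2 (15.7) and Cox6a2 on TA pair 3 (16.25). Among WT signals they were Sdhc on TA pair 3 (13.37), Cycs on gastrocnemius pair 4 (15.02), Cox7a2 on TA pair 1 (13.9) and Cox7a2l on gastrocnemius pair 3 (13.38).

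Cox4i1 was marked for opposite directions in the muscles: its genotype ratio was above 0 on all 4 gastrocnemius arrays and below 0 on all 4 TA arrays. The difference of 0.4467 had an unadjusted p of 0.00299 and an adjusted p of 0.636 by limma.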

How the results depend on the processing

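Every called member, and Eif6, kept its direction under each alternative run for that result, with 681 gene results that stayed called and 183 that did not. In gastrocnemius the count of 11 called members became 6 with loess alone, 5 with offset 0, 4 with Agilent's processed signals, 7 with the deposited ratios, 7 with the mean of a gene's probes, 3 at a threshold of 0.05, and 0 to 9 with 1 array left out. The share of all genes that rose was 9.86% and became 10.3%, 7.41%, 6.44%, 9.85%, 7.44%, 3.44% and 0% to 8.27% in the same order. SAM called 15 members, and 2146 genes higher against 1244 by limma. In TA the count of 7 became 0 to 8 with 1 array left out, and between 5 and 9 otherwise, with both directions among them: 2 higher and 7 lower with loess alone, 2 and 6 with the deposited ratios, and 1 and 8 with no filter and with SAM. Over all genes 1112 higher and 902 lower became 512 and 332 with Agilent's processed signals, 686 and 530 with offset 0, 1365 and 748 with loess alone, and 53 and 15 without pair 1. With Agilent's processed signals the median of all genes moved to −0.14 in WT and −0.11 in Eif6+/- for gastrocnemius over TA, the members' medians to −0.66 and −0.32, the called genes of all kinds from 1038 higher and 1668 lower to 897 and 2627 in WT and from 849 and 1258 to 851 and 3064 in Eif6+/-, and the Eif6+/- member count from 7 to 24. Leaving out 1 array gave 4 to 9 called members in Eif6+/- (4.47% to 10.6% of all genes lower). Over all settings the WT count ranged from 20 to 32 (6.42% to 22.2% of all genes lower). No setting gave a called member for the difference between the muscles' ratios (0 by limma, 11 to 23 with an unadjusted p under 0.05). The cause of these shifts was not tested. Whether equal pair numbers in the 2 muscles mean the same mice is not known, and the muscle comparisons treat the samples as independent. Correlations of deviations of same-numbered samples ran from −0.376 to 0.192, and not every sample correlated best with its own number. With the pair number as a block, 26 members were called in WT (Uqcrh and Sco2 lost, Cox6a2 gained), 7 in Eif6+/- (Cox7c lost, Cycs gained) and 0 for the difference between the ratios. Signal over background limits Cox17, which was not measured.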
